A study of Mus musculus with 6 samples.

Results

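The mitochondrial carrier family was examined as the 45 genes whose symbol begins with Slc25a and a number, among 19176 rows of a table of renal cortex transcripts. All 45 had reads in each of the 6 libraries, although Slc25a2, Slc25a18, Slc25a31 and Slc25a43 had fewer than 100 reads in every library. The symbol alone decides which genes are members, while the family itself was picked for description with earlier results of these data known. Slc25a41 and Slc25a52, 2 further carriers with a known substrate, have no row in the table.

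The libraries came from wild-type male C57BL/6J mice aged 8 weeks at the start, in which the vessels of the left kidney were clamped and then released (unilateral ischemia-reperfusion injury, UIRI), and the uninjured right kidney was removed the day before tissue was taken on day 14. The UIRI group (n = 3) received the vehicle, ethanol in saline, and the UIRI + BA group (n = 3) received bruceine A (BA; spelled brucine A in the labels), a quassinoid from Brucea javanica, at 1 mg/kg each day. Both groups carried the injury and the nephrectomy, and uninjured cortex was not analysed here, so every value compares injured with injured and treated kidneys. Each library was 1 biological replicate, and the recovered reads per library ranged from 16510720 to 38124164, the highest being UIRI replicate 3.

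Mitochondrial carriers are small proteins of the inner mitochondrial membrane, built from a repeated pair of membrane helices, that exchange nucleotides, phosphate, carboxylates, amino acids and cofactors between cytosol and matrix. They are made from nuclear genes and imported after synthesis. In the kidney the proximal tubule, the segment that reclaims most of the filtrate, is packed with mitochondria and burns fatty acids, and it also makes ammonia, glucose and arginine. Several of these routes cross the inner membrane on a carrier. Some carriers of the family sit elsewhere, such as Slc25a17 in the peroxisome and Slc25a46 in the outer mitochondrial membrane.

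Most carrier transcripts were close to equal in the groups, with a tilt towards higher values under BA. The log2 fold change (UIRI + BA over UIRI) was above 0 for 31 of 45 members (68.9%) and for 48.9% of all rows, and its median was 0.10 over the members and -0.01 over all rows. With limma on log2(value + 1), 0 of 45 members and 0 of 19176 rows (0%) had an adjusted p below 0.05. At an unadjusted p below 0.05 there were 7 members (15.6%, against 10.3% of all rows), of which 6 were higher with BA (13.3%, against 5.67% of all rows) and 1 was lower (2.22%, against 4.61%). The 6 were Slc25a42, Slc25a15, Slc25a34, Slc25a31, Slc25a13 and Slc25a30, and the 1 was Slc25a53. No separate test of the members against the other rows was made. In these bulk samples, fewer cells of a type and less RNA per cell cannot be told apart.

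Run on the recovered reads, DESeq2 gave 2 members an adjusted p below 0.05, Slc25a42 and Slc25a15, where 1.11% of the 19171 rows with a DESeq2 p-value passed. These rows include some to which DESeq2 gave no adjusted p, among them Slc25a2, Slc25a18, Slc25a31 and Slc25a43. edgeR's quasi-likelihood test gave 0 of 42 members and 0 of 17155 rows an adjusted p below 0.05, with 6 members and 9.93% of rows at an unadjusted p below 0.05. The groups did not overlap for 10 members (22.2%, against 14.4% of all rows). Of these, 8 were higher with BA (7.45% of all rows), namely Slc25a42, Slc25a15, Slc25a34, Slc25a31, Slc25a13, Slc25a21, Slc25a23 and Slc25a43, and 2 were lower (6.96% of all rows), Slc25a29 and Slc25a53.

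**Figure D1:**
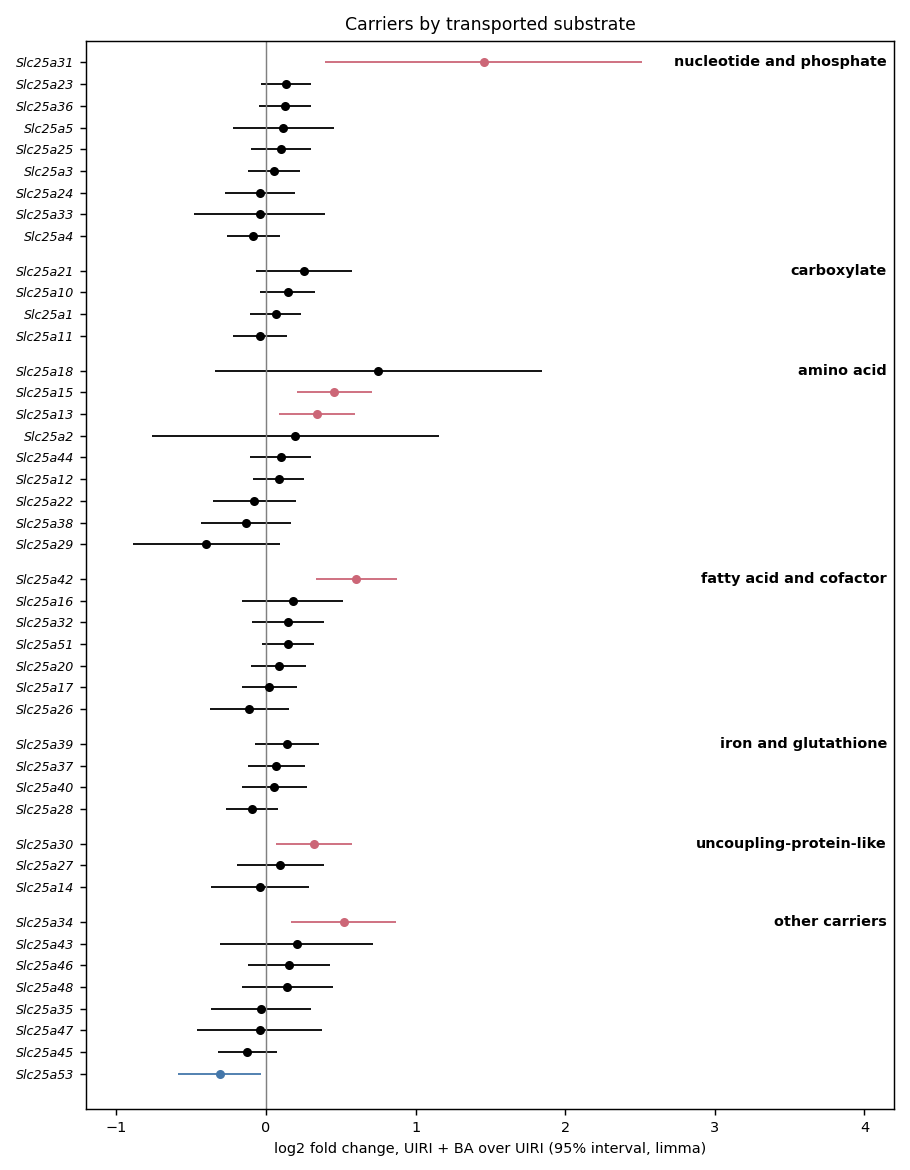
Log2 fold change of 44 carriers (x axis, UIRI + BA over UIRI, n = 3 libraries each) with its 95% interval from limma (horizontal line), grouped by transported substrate. Red marks the 6 carriers higher and blue the 1 lower at an unadjusted p below 0.05, and the other 37 intervals drawn include 0.

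Summed over the family, normalized values were 58107, 58518 and 59611 in UIRI replicates 1, 2 and 3 and 60980.5, 62026 and 63184 in UIRI + BA replicates 1, 2 and 3. As a share of all normalized values in a library, the family took 0.275% to 0.286% under UIRI and 0.292% to 0.298% under BA. Neither measure overlapped between the groups. Divided by transcript length before summing, the values ran from 26984 to 27677 per kilobase under UIRI and from 27599 to 29382 under BA, which overlap.

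By level per kilobase of the principal transcript, the carriers of the ATP economy stood first. Slc25a3, the phosphate carrier that supplies ATP synthase, had a normalized value per kilobase of 7212 ± 304 (SD over the 6 libraries). It was followed by the ADP/ATP translocases Slc25a5 at 4322 ± 640 and Slc25a4 at 2404 ± 139. Together these 3 genes held 48.3% to 51.4% of the family's summed level per kilobase, depending on the library. Next came the glutathione carrier Slc25a39 at 1411 ± 136, Slc25a17 at 1063 ± 59.6 and the oxoglutarate carrier Slc25a11 at 1034 ± 57.1, the last pair being closer to each other than their spread. At the other end were Slc25a2 at 5.45 ± 1.89, Slc25a31 at 4.16 ± 3.03 and Slc25a18 at 3.42 ± 1.80, which also lie within their spread of each other. The order depends on the length used: with all annotated exons merged, Slc25a5 stood first and Slc25a3 second, and Slc25a17 moved to place 8.

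**Figure D2:**
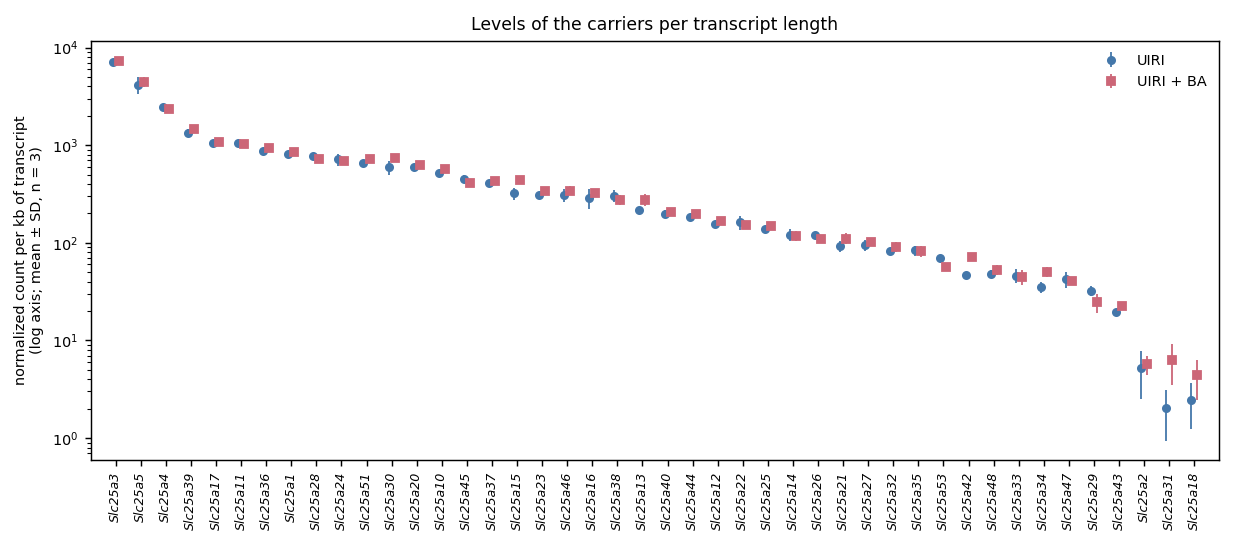
Level of 44 carriers as normalized value per kilobase of principal transcript (y axis, log scale), as the mean and SD (vertical line) of UIRI (blue circles) and UIRI + BA (red squares), n = 3 libraries each. The levels span from Slc25a18 at a mean of 3.42 to Slc25a3 at 7212 over all 6 libraries, and the gap between the groups is small beside the differences between genes.

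Among the carriers of nucleotides and phosphate, 6 of 9 were higher with BA and 3 lower, and the median log2 fold change was 0.10. Slc25a3 read 11320.0, 10806 and 12127 normalized counts in UIRI replicates 1, 2 and 3 and 11644, 11928 and 11929 in UIRI + BA replicates 1, 2 and 3, a log2 fold change of 0.05 (SE 0.08, 95% interval -0.12 to 0.23, limma adjusted p = 0.814). The groups overlap, and Slc25a3 in UIRI replicate 3 was the highest of the 6. Slc25a4, the translocase of heart and muscle, read 5041, 4695 and 4548 under UIRI and 4220.5, 4557 and 4705 under BA, a log2 fold change of -0.08 (SE 0.08, 95% interval -0.26 to 0.09, limma adjusted p = 0.707). Slc25a5, the translocase of dividing and epithelial cells, read 5646, 5895 and 3974 under UIRI and 4842, 5849.9 and 5952 under BA. UIRI replicate 3 was the lowest of the 6 libraries for Slc25a5, and the log2 fold change of 0.12 (SE 0.15, 95% interval -0.22 to 0.46) became -0.06 without it. Reads of Slc25a5 could be shared with its annotated pseudogene Slc25a5-ps, since the handling of reads with several matches is not given in the sources used here.

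Slc25a31, the translocase known from male germ cells, was near the limit of detection, with 2, 6 and 7 reads under UIRI and 16, 11 and 8 under BA. Its normalized counts of 2.27, 6.75 and 3.83 under UIRI lay below those of 20.0, 11.8 and 8.35 under BA, with means of 4.28 ± 2.27 and 13.4 ± 6.00 (SD, n = 3 each). The log2 fold change of 1.46 (SE 0.47, 95% interval 0.40 to 2.52, limma adjusted p = 0.380) rests on these few reads and on the pseudocount of 1. The calcium-regulated ATP-Mg/phosphate carriers differed little: Slc25a23 had a log2 fold change of 0.13, Slc25a25 of 0.10 and Slc25a24 of -0.04. Slc25a23 read 1042, 1018 and 1091 under UIRI and 1141, 1181 and 1132 under BA, a small difference with no overlap. The pyrimidine nucleotide carriers Slc25a36 and Slc25a33 had log2 fold changes of 0.13 and -0.04.

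The carboxylate carriers link the citric acid cycle to the cytosol, and 3 of 4 were higher with BA, none at an unadjusted p below 0.05. Slc25a21, the oxodicarboxylate carrier of lysine and tryptophan breakdown, read 203, 264 and 257 under UIRI and 268, 266 and 331 under BA, which do not overlap but come within 2 normalized counts of each other, with a log2 fold change of 0.26 (SE 0.14). The dicarboxylate carrier Slc25a10 had a log2 fold change of 0.14, the citrate carrier Slc25a1 of 0.06 and Slc25a11 of -0.04.

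Of the amino acid carriers, 6 of 9 were higher with BA and 3 lower (median log2 fold change 0.10), with Slc25a15 and Slc25a13 at an unadjusted p below 0.05. Slc25a15 exchanges ornithine for citrulline, and its loss causes a syndrome of raised ornithine and ammonia. It read 971, 1058 and 1270.0 normalized counts in UIRI replicates 1, 2 and 3 and 1621, 1381 and 1505 in UIRI + BA replicates 1, 2 and 3, with means of 1099.8 ± 154 and 1502 ± 120 (SD, n = 3 each). Every BA library lay above every UIRI library, with UIRI replicate 3 the nearest. The log2 fold change was 0.46 (SE 0.11, 95% interval 0.21 to 0.71, limma adjusted p = 0.263), and DESeq2 gave 0.45 with an adjusted p of 0.0411 and edgeR an adjusted p of 0.288. Without UIRI replicate 3 it was 0.56, and without UIRI replicate 1 it was 0.37.

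Slc25a13 (citrin), the aspartate-glutamate carrier of the malate-aspartate shuttle, read 642, 709 and 679 under UIRI and 722, 933 and 932 under BA. UIRI + BA replicate 1 lay just above the UIRI range and the other two well above it. Its log2 fold change was 0.34 (SE 0.11, 95% interval 0.08 to 0.59, limma adjusted p = 0.389). Slc25a12, the other aspartate-glutamate carrier, had a log2 fold change of 0.08 (SE 0.08). The basic amino acid carrier Slc25a29 had the lowest log2 fold change of the class, -0.40 (SE 0.22). It read 56.6, 70.9 and 64.1 under UIRI and 36.3, 56.0 and 54.3 under BA. The groups were thus parted by less than 1 normalized count. The glutamate carriers Slc25a22 and Slc25a18 had log2 fold changes of -0.08 and 0.75, the second with a 95% interval of -0.34 to 1.84 at fewer than 13 normalized counts. Slc25a38, a glycine carrier needed for heme synthesis, was at -0.13, Slc25a44, a branched-chain amino acid carrier, at 0.10, and the second ornithine carrier Slc25a2 at 0.20 with a 95% interval of -0.76 to 1.16.

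Carriers of fatty acids and cofactors had the highest class median, 0.13, with 7 of 8 higher under BA and 1 of 8 at an unadjusted p below 0.05. The medians of the carboxylate, nucleotide and amino acid classes were close to it, each at 0.10. Slc25a42 brings coenzyme A into the matrix, and it had the smallest p of the family. It read 138, 155 and 159 normalized counts in UIRI replicates 1, 2 and 3 and 247, 226 and 216 in UIRI + BA replicates 1, 2 and 3, with means of 150.8 ± 11.0 and 229.6 ± 15.7 (SD, n = 3 each). The gap between the groups was wider than the range within either one, and UIRI replicate 3 stayed with the other UIRI libraries. The log2 fold change was 0.60 (SE 0.12, 95% interval 0.33 to 0.88, 1.52-fold), with an adjusted p of 0.225 by limma, 0.0275 by DESeq2 and 0.251 by edgeR. Leaving out any 1 library kept it between 0.54 and 0.65.

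The other coenzyme A carrier, Slc25a16, read 773, 805 and 1157 under UIRI and 1099.9, 921 and 1032 under BA. UIRI replicate 3 was the highest of all 6 libraries, and the log2 fold change of 0.18 (SE 0.15) became 0.36 without it. Slc25a20, which carries acylcarnitines to beta-oxidation, had a log2 fold change of 0.09 (95% interval -0.10 to 0.27). The NAD carrier Slc25a51 was at 0.15, the folate and FAD carrier Slc25a32 at 0.15 and the S-adenosylmethionine carrier Slc25a26 at -0.11. Slc25a17, the abundant peroxisomal cofactor carrier, read 1875, 1728 and 1849.9 under UIRI and 1768, 1766 and 2009 under BA, a log2 fold change of 0.02 (SE 0.08, 95% interval -0.16 to 0.21, limma adjusted p = 0.935).

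For iron and glutathione, 3 of 4 carriers were higher with BA and the median was 0.06. Slc25a39, the glutathione carrier, read 2281, 2428 and 2069.5 under UIRI and 2227, 2689 and 2567 under BA, which overlap (log2 fold change 0.14, SE 0.10, 95% interval -0.07 to 0.36, limma adjusted p = 0.615). Its relative Slc25a40 had a log2 fold change of 0.06. The mitoferrins, which bring iron to the matrix for heme and iron-sulfur clusters, were at 0.07 for Slc25a37 and -0.09 for Slc25a28.

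Of the carriers related to the uncoupling proteins, Slc25a30, known as the kidney mitochondrial carrier, read 1898, 1949 and 2522 under UIRI and 2756, 2467 and 2684 under BA. UIRI replicate 3 lay above UIRI + BA replicate 2, so the groups overlapped, while the other UIRI libraries lay far below. The log2 fold change of 0.32 (SE 0.11, 95% interval 0.07 to 0.58, limma adjusted p = 0.418) was 0.45 without UIRI replicate 3. Slc25a27 and Slc25a14 were at 0.09 and -0.04.

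The remaining 8 members, for which no substrate is given here, split evenly, 4 higher and 4 lower with BA. Slc25a34 read 87.2, 107 and 87.6 under UIRI and 144, 117 and 144 under BA, with no overlap and a log2 fold change of 0.52 (SE 0.16, 95% interval 0.17 to 0.87, limma adjusted p = 0.351). Slc25a53 was the 1 member lower at an unadjusted p below 0.05, reading 185, 173 and 183 under UIRI and 143, 159 and 135 under BA (log2 fold change -0.31, SE 0.12, 95% interval -0.59 to -0.03, limma adjusted p = 0.456). Slc25a43, at 20.4 to 23.6 under UIRI and 23.7 to 26.3 under BA, did not overlap, but its log2 fold change of 0.20 had a 95% interval of -0.31 to 0.72. Slc25a46 was at 0.15, Slc25a48 at 0.14, Slc25a45 at -0.13 and both Slc25a35 and Slc25a47 at -0.04. Slc25a35 shares 31.3% of its exon length with a gene on the other strand, the highest share in the family, and none of the 7 carriers with an unadjusted p below 0.05 shares any.

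**Figure D3:**
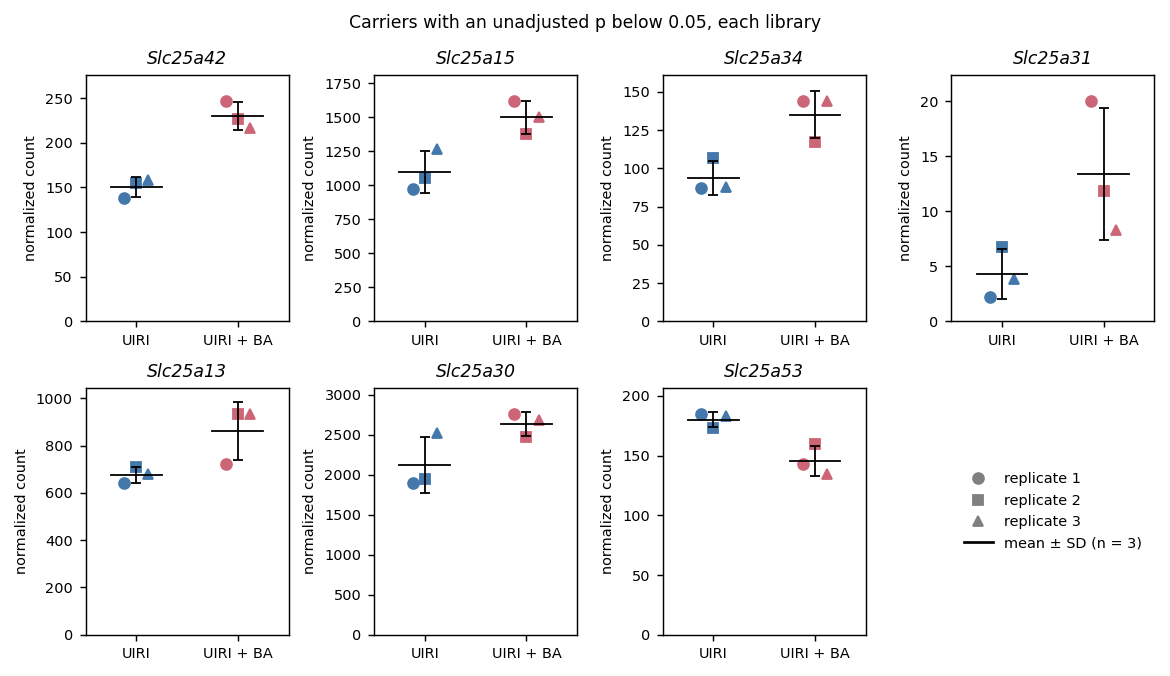
Normalized counts (y axis, from 0) of the 7 carriers with an unadjusted p below 0.05, 1 point per library, shaped by replicate, with the mean (long line) and SD (error bar) of each group (n = 3). Slc25a42 shows the clearest gap, with 159 the highest UIRI and 216 the lowest BA library, and Slc25a30 overlaps through UIRI replicate 3 at 2522.

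Promoters of 35 members were found in RefSeq (GRCm38.p6), as 45 start sites. The 250 bases before the start of Slc25a42, Slc25a15 and Slc25a34 are shown, since these carriers had the smallest p-values of the family and differ in promoter type. All 3 lie on the minus strand, Slc25a42 at chr8:70212282-70212531, the first of 2 Slc25a15 starts at chr8:22398278-22398527 and Slc25a34 at chr4:141623835-141624084, and are printed 5′ to 3′ as transcribed. Capitals mark CG dinucleotides in the first and second, and the letters TGACCTT, the reverse complement of AAGGTCA, in the third.
Slc25a42: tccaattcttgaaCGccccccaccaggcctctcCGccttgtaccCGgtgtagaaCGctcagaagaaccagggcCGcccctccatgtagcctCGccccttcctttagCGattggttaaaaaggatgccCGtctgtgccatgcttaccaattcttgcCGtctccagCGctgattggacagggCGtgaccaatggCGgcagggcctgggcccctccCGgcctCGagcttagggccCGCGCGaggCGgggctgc
Slc25a15: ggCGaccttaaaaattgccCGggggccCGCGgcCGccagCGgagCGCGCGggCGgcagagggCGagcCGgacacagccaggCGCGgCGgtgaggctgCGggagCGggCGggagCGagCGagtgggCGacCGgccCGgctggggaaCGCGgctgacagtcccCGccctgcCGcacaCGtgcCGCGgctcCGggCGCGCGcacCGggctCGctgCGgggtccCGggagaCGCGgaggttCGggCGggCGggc
Slc25a34: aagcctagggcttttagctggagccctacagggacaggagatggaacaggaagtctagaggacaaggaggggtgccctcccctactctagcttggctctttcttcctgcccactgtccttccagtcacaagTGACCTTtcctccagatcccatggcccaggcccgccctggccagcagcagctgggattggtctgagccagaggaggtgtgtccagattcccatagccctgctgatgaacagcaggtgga

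The Slc25a15 window held 43 CG dinucleotides and that of Slc25a42 held 18, against a median of 6 over all promoters, while Slc25a34 held 1. The second Slc25a15 start, upstream at chr8:22398622-22398871, held 11. AAGGTCA, the element of estrogen-related receptors, was searched on both strands and stood in 1 of 45 member promoters (2.22%, that of Slc25a34, beginning at -119 from the start) and in 4.72% of 32851 promoters. The palindrome of nuclear respiratory factor 1, searched as its consensus, stood in 0 of 45 and in 0.971% of all. A match of letters is a description and not a binding site.

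Within families of near relatives, log2 ratios inside a library compare carriers of like function. Over 10 pairs, 3 ratios did not overlap between the groups, each with an exact two-sided permutation p of 0.1, the smallest that 3 against 3 libraries allow, and an adjusted p of 0.333 over the 10 pairs. Slc25a42 over Slc25a16 was -2.47, -2.37 and -2.86 under UIRI and -2.15, -2.02 and -2.25 under BA, a difference of 0.43 on the log2 scale. Slc25a30 over Slc25a14 was 0.36 higher with BA, and Slc25a24 over Slc25a23 was 0.17 lower. Slc25a13 over Slc25a12 was 0.26 higher and Slc25a5 over Slc25a4 was 0.20 higher, both with overlapping groups (exact permutation p = 0.2 each).

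The partners of these carriers were read from lists of genes. The malate-aspartate shuttle runs on Slc25a11, Slc25a12 and Slc25a13 with cytosolic and matrix enzymes, and all 4 of those enzymes were higher with BA (median log2 fold change 0.20), 2 of them at an unadjusted p below 0.05. These were Got1, an aspartate aminotransferase, at 0.24 (SE 0.10) and Mdh1, a malate dehydrogenase, at 0.22 (SE 0.09). Both were the cytosolic enzymes, and UIRI replicate 3 lay at the BA level in each, with 1778 for Got1 against 1757 to 1816 under BA. Every gene of the lists had a limma adjusted p above 0.05.

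Of the ornithine and arginine enzymes set beside Slc25a15, 4 of 6 in the table were higher with BA, 2 at an unadjusted p below 0.05. The 2 lower were Arg2 at -0.27 (SE 0.26) and Oat at -0.10 (SE 0.10), both with overlapping groups. Asl and Ass1, which turn citrulline into arginine in the proximal tubule, had log2 fold changes of 0.19 (SE 0.07) and 0.52 (SE 0.21). Asl read 1638, 1721 and 1748 under UIRI and 1898, 1986 and 1962 under BA, with no overlap, whereas Ass1 in UIRI replicate 3 (5200.4) lay within the BA range and its log2 fold change was 0.80 without that library. Without it, the median of the list went from 0.18 to 0.29 and 4 enzymes were higher at an unadjusted p below 0.05. The share of all rows higher at that threshold also rose, from 5.67% to 13.7%. Otc, the liver enzyme of citrulline synthesis, has no row in the table.

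On the carnitine route that ends at Slc25a20, 5 of 6 genes were higher with BA, 3 at an unadjusted p below 0.05. Slc22a5, the plasma membrane carnitine transporter, read 1193, 1189 and 1329.7 under UIRI and 1558, 1549 and 1579 under BA, a log2 fold change of 0.34 (SE 0.08, limma adjusted p = 0.249). Cpt1a and Cpt2, the acyltransferases on either side of the carrier, were both at 0.22 and neither overlapped. Slc25a20 itself, between them, was at 0.09.

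The highest median among the lists of metabolic enzymes, 0.43, was that of ammoniagenesis and gluconeogenesis, where 5 of 6 genes were higher with BA and 3 had an unadjusted p below 0.05. These were Pck1 at 1.04 (SE 0.23), Fbp1 at 0.80 (SE 0.27) and G6pc at 0.86 (SE 0.33). Fbp1 and G6pc overlapped between the groups through UIRI replicate 3, at 1988 and 391 normalized counts. Without that library G6pc was at 1.29, Fbp1 at 1.18 and the median of the list at 0.66. All act in the cytosol or endoplasmic reticulum, while the matrix enzyme Glud1, which releases ammonia from glutamate, was at 0.05.

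Mitochondrial genes without a carrier role give a yardstick for the family. Of 15 enzymes and respiratory subunits, 14 were higher with BA (median 0.15), 4 at an unadjusted p below 0.05, among them Atp5b at 0.23, Idh3a at 0.20 and Hspd1 at 0.35, the last with overlapping groups. Without UIRI replicate 3, 8 of 15 were higher at an unadjusted p below 0.05, with a median of 0.23. The share of all rows also rose, from 5.67% with all libraries to 13.7% without that one. Taken relative to the mean of that list in each library, which was itself 0.15 higher with BA, 13 carriers were higher (28.9%, against 22.7% of all rows) and 32 lower (71.1%, against 77.3%). On this scale 3 carriers were higher without overlap (Slc25a31, Slc25a42 and Slc25a15; 6.67%, against 2.42% of all rows) and 6 were lower without overlap (13.3%, against 19.4%). Other mitochondrial transporters were 12 higher and 9 lower of 21, with a median of 0.01. Of these, 2 were higher and 1 lower at an unadjusted p below 0.05, among them Sfxn1, a serine transporter, at 0.29 and Sfxn3 at -0.21. Of 12 genes for the import of carriers, 5 were higher and 7 lower, with 0 at an unadjusted p below 0.05 by limma. Of 12 heme and iron-sulfur enzymes, 8 were higher (median 0.03), with Cpox alone at an unadjusted p below 0.05, at 0.31 and with overlapping groups. Carriers listed under other symbols were 2 higher and 2 lower, with 0 at an unadjusted p below 0.05 by limma and Ucp2, the abundant uncoupling protein, at -0.26 (SE 0.14). Without UIRI replicate 3 their median was -0.19 and Ucp2 was at -0.43. In that fit 2 of these 4 were lower at an unadjusted p below 0.05, as were 11.5% of all rows, and 0 were higher.

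All 10 regulators of mitochondrial genes were higher with BA (median 0.24), 5 at an unadjusted p below 0.05. Hnf4a, a nuclear receptor of proximal tubule identity, read 3052, 3653 and 3797 under UIRI and 5096, 4819 and 5429 under BA, a log2 fold change of 0.55 (SE 0.10, limma adjusted p = 0.225). Ppara, the receptor that drives fatty acid oxidation, was at 0.81 and Esrrg at 0.37. The coactivator Ppargc1a was at 0.43. Ppara and Ppargc1a overlapped between the groups through UIRI replicate 3, at 95.8 and 802 normalized counts, and the mitochondrial genome factor Tfam was at 0.06.

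**Figure D4:**
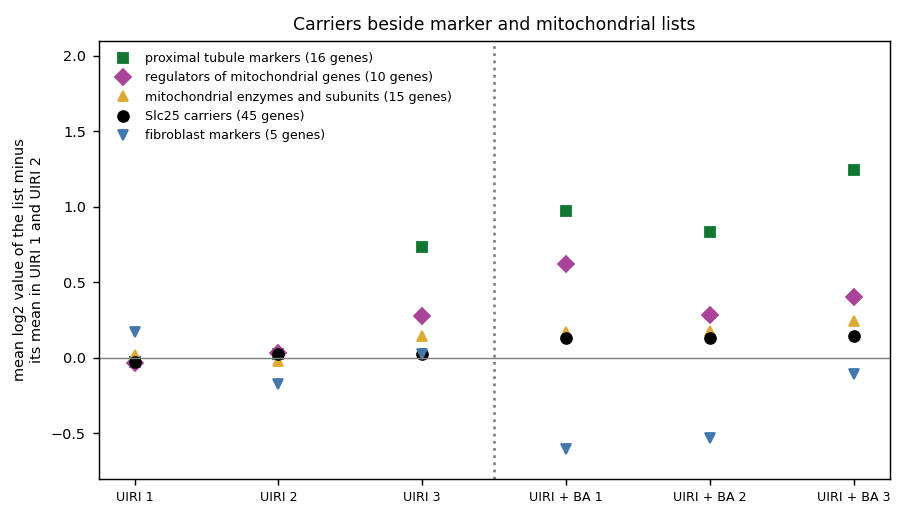
Mean log2 value of the 45 carriers and of 4 gene lists in each library (x axis), relative to the mean of UIRI replicates 1 and 2 (y axis, log2). Proximal tubule markers lie 0.77 higher in the BA libraries than in the 3 UIRI libraries and are raised in UIRI replicate 3 too, while the carriers' mean log2 value runs only from 8.85 to 9.03.

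Proximal tubule markers moved with the groups. All 16 markers were higher with BA (median 0.76), 15 at an unadjusted p below 0.05, and their summed level was 60972 to 80458 under UIRI and 88127 to 147086 under BA. Without UIRI replicate 3 the count was again 15, with a median of 1.00. Relative to the mean of these markers in each library, 44 of 45 carriers (97.8%) were lower with BA, as were 98.2% of all rows, and 24 of these (53.3%, against 54.1% of all rows) did not overlap. Since the marker mean itself was 0.77 higher, this scale lowers every row alike, and the carriers' counts lie near those of all rows. The difference on this scale was -0.17 for Slc25a42, -0.31 for Slc25a15, -0.43 for Slc25a13 and -1.08 for Slc25a53, and the exception was Slc25a31 at 0.69. The part of proximal tubule abundance in the carrier values was not tested.

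Of the fibroblast markers, 5 of 5 were lower with BA, 3 at an unadjusted p below 0.05 (Col1a1 at -0.32, Col3a1 at -0.56 and Pdgfrb at -0.20), with a summed level of 63078 to 78181 under UIRI and 44873 to 61152 under BA. All 7 leukocyte markers were lower, with summed levels of 19014 to 24423 and 17221 to 20654. Injured tubule markers were divided, with 5 of 10 higher and 5 lower. At an unadjusted p below 0.05, 2 were lower, Lcn2 at -0.51 and Krt18 at -0.39. At the same threshold 3 were higher, Havcr1 at 0.42, Vcam1 at 0.35 and Krt20 at 0.41, the last with overlapping groups. The part of the fibroblast, leukocyte and injured tubule markers in the carrier values was not tested. All 16 proximal tubule, 6 thick limb and 12 collecting duct markers and all 4 podocyte markers listed were in the table, and 0 of 4 adipose markers and 2 of 5 skeletal muscle markers had a row in the table.

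UIRI replicate 3 often stood apart from the other UIRI libraries. Its log2 value was nearer to the BA mean than to the mean of the other UIRI libraries for 29 of 45 carriers (64.4%) and for 66.6% of all rows. It lay between those means for 16 carriers (35.6%, against 31.0% of all rows) and at or past the BA mean for 18 (40.0%, against 47.2%). Slc25a15, Slc25a16 and Slc25a30 were among the 29, and Slc25a42, Slc25a13, Slc25a34, Slc25a31 and Slc25a53 were not. Without it, limma gave 3 carriers an adjusted p below 0.05, Slc25a15 at 0.0144, Slc25a30 at 0.0172 and Slc25a42 at 0.0318, where 5.02% of all rows passed. Urothelial markers were also uneven, with a summed level of 99.7, 100.1 and 482 in UIRI replicates 1, 2 and 3, 286 in UIRI + BA replicate 3 and at most 10.8 in the other two BA libraries, and their part in the carrier values was not tested. At an unadjusted p below 0.05 there were, without UIRI replicate 3, 13 carriers, 28.9% of the family against 25.2% of all rows. Of these, 11 were higher (13.7% of all rows) and 2 lower (11.5% of all rows).

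**Figure D5:**
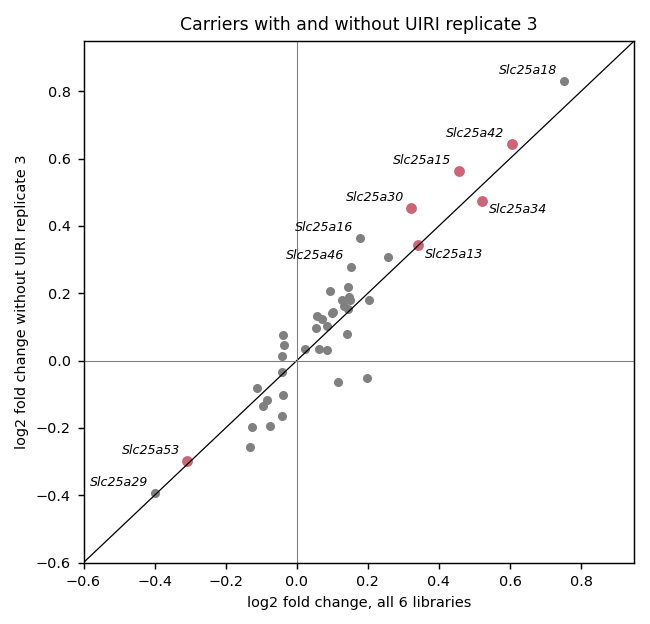
Log2 fold change of the carriers with all 6 libraries (x axis) against that without UIRI replicate 3 (y axis), with the line of equality. Red marks an unadjusted p below 0.05 with all libraries, and Slc25a31, at 1.46 and 1.44, lies outside the axes. Slc25a15, Slc25a30 and Slc25a16 lie above the line, at 0.56, 0.45 and 0.36 without that library, while Slc25a42 stays near it at 0.64.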

How the data were processed

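RNA sequencing of renal cortex was compared between UIRI (n = 3) and UIRI + BA (n = 3), grouped by the library labels. Per the study's methods, the authors used HISAT2 for alignment, FeatureCounts for read counting and DESeq2 for testing. The genome build, annotation, strand setting and treatment of multiply mapped reads are not given in the sources used here, and the labels and methods name different RNA kits. The authors deposited a signal per gene and library, a count divided by a size factor, from which 100% of values gave whole reads within 0.01 reads. The same table, as deposited by the authors, also holds their log2 fold change, p-value and adjusted p-value for this comparison, and other tables hold their term enrichment, none of which was used. 0 columns of per-library values were left out.

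limma 3.58.1 (R 4.3.3) with an intensity trend was fitted to log2(value + 1) of all 19176 rows with Benjamini-Hochberg adjustment and no covariate. DESeq2 1.42.0 and edgeR 4.0.16 (quasi-likelihood) were run on recovered reads. Paralog ratios used an exact two-sided permutation test. The alternatives were upper quartile scaling, quantile normalization, a pseudocount of 0.1, the removal of rows with any value below 1, no trend, a replicate block and leaving out each library. Lengths came from GENCODE M21 (45 of 45 members matched) and promoters from RefSeq. Protein sequences were not analysed here. Scripts were tested on simulated data. Members and lists were chosen with earlier results of these data known. Full values are given for members with an unadjusted p below 0.05 and for the 5 with the highest level per kilobase. Up to 4 genes of a list with an unadjusted p below 0.05 were to be named. Further members and list genes were named after their values were seen. The values of 1 member and of a few list genes are not reported here, although the counts and medians include them.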

Additional observations from a re-analysis of the deposited data

How the results depend on the processing

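No carrier passed in limma with all libraries, and Slc25a2, Slc25a18 and Slc25a31 had too few reads for edgeR's filter. The count of carriers with an adjusted p below 0.05 was 2 with DESeq2 and ranged from 0 to 3 when 1 library was left out, the 3 arising without UIRI replicate 3. Higher carriers at an unadjusted p below 0.05 ranged from 4 to 11 (2.61% to 13.7% of all rows) and lower carriers from 0 to 2 (1.61% to 11.5% of all rows) when 1 library was left out, and lower carriers were 0 with DESeq2 (3.41% of all rows). Carriers whose groups do not overlap numbered 7 with upper quartile scaling (15.6%, against 14.2% of all rows) and 10 with quantile normalization (against 13.8%). With 1 library left out, where smaller groups overlap less often, they ranged from 11 to 28, being 28 without UIRI replicate 3 (62.2%, against 45.4%), 17 when UIRI + BA replicate 2 was left out (37.8%, against 25.3%) and 16 without UIRI replicate 2 (35.6%, against 21.9%). The number of paralog ratios that do not overlap ranged from 3 to 6, being 6 without UIRI replicate 2 and 5 when UIRI + BA replicate 1 was left out. The median log2 fold change of the carriers was 0.079 with upper quartile scaling, where the median of all rows was -0.025, and ranged from 0.068 to 0.103 when 1 library was left out. The cause was not tested for any of these.

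With quantile normalization Slc25a17 became -0.0032 and Slc25a47 0.0017. Leaving out 1 library turned the sign of 12 carriers, whose log2 fold changes ranged from -0.10 to 0.0072 for Slc25a11, from -0.16 to 0.047 for Slc25a14, from -0.040 to 0.053 for Slc25a17, from -0.053 to 0.54 for Slc25a2, from -0.19 to 0.044 for Slc25a22, from -0.12 to 0.077 for Slc25a24, from -0.16 to 0.11 for Slc25a33, from -0.14 to 0.048 for Slc25a35, from -0.0041 to 0.12 for Slc25a37, from -0.0093 to 0.13 for Slc25a40, from -0.17 to 0.094 for Slc25a47 and from -0.063 to 0.22 for Slc25a5. No other carrier turned its sign under the alternatives. Same-numbered libraries had correlations of deviations from their group means of -0.24, 0.30 and 0.15. So few correlations cannot decide whether same-numbered libraries were paired, and no pairing is given in the sources used here. With the replicate block, 6 carriers were higher (5.76% of all rows) and 0 lower (5.23% of all rows) at an unadjusted p below 0.05, with 0 carriers and 6 of all rows at an adjusted p below 0.05.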
